A study of Drosophila melanogaster with 6 samples.

Results

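In eye discs of *mir-998* mutant larvae, 61 of the 11982 genes read on the arrays lay between 1.0 and 2.5 log2 units below wild type and had all 3 mutant values under all 3 wild type values. These moderately lower genes were taken from the deposited log2 expression values. The brightest probe set on average stood for a gene, probe sets naming more than 1 gene were left out, the wild type mean had to be at least 7, and symbols starting with Cyp or Gst (cytochrome P450 and glutathione S-transferase genes) were left out. This last condition removed 3 genes, *GstD9*, *Cyp4p1* and *Cyp12c1*, from the 64 that met the other limits. The 61 genes were therefore chosen by the contrast between the genotypes, and their differences are a description. Calls by limma on the same contrast are counted below only to describe the spread of the arrays, and they are no independent test of these genes.

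The mutant group held 3 arrays of *mir-998 exc222* homozygotes, and the wild type group 3 arrays of *w1118*. All discs came from larvae in the wandering stage of the third instar cultured at 25°C. The *exc222* allele is a single line made by imprecise excision of a P element, which left part of the element inside the *mir-998* gene in an intron of *dE2f1*, and whether its other chromosomes match *w1118* is not given in the sources used here. The discs were pooled for RNA, so fewer cells of a type and less RNA per cell cannot be told apart in any value that follows.

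The labels call the arrays of a genotype biological replicates, but neither separate crosses nor a scan batch are named. Across probe sets, correlations between arrays of 1 genotype were 0.996 to 0.997 among mutant and 0.989 to 0.994 among wild type arrays. Mature miR-998 was not measured on these arrays, so its loss cannot serve as a check of their labels. The paper reports that a separate Taqman assay found none in eye discs of the mutant. All 14 measured genes of an eye disc identity list, which includes the eye determination genes *ey*, *so* and *eya*, lay above 5.28, the median of all values, and their mean over the list was 10.28 to 10.34 on mutant arrays and 9.58 to 10.32 on wild type arrays. Of these 14 genes, 13 had a difference above 0 and none below it, with a median of 0.26 and no gene called by limma, and the part of this shift in the members' differences was not tested.

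As background, miR-998 is a microRNA of the mir-29 seed family, encoded together with *mir-11* within *dE2f1*, the gene of a transcription factor that drives cell cycle and cell death genes. MicroRNAs lower the level or the translation of the transcripts they pair with. The larval eye disc is an epithelium in which a furrow moves forward and leaves behind it clusters of photoreceptors, whose axons grow towards the brain. The discs also carry hemocytes on their surface, and salivary gland and fat body lie close to them in the larva.

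The rule itself set the 61 genes below the cloud of all genes, and many neighbours lay just outside the limits. The median difference between mutant and wild type was -1.37 over the 61 genes, against 0.00333 over all 11982 genes read. This distance follows from the rule, and nothing is read from it. The difference lay between 1 and 1.25 log2 units in 25 genes, between 1.25 and 1.5 in 10, between 1.5 and 2 in 22 and between 2 and 2.5 in 4. As a share of the wild type level, mutant expression was lowest for *CG1136*, at 19.3%, and highest for *Arl8* and *ftz-f1*, at 49.9% each. In mutant discs the means ran from 5.38 to 10.87, and in wild type discs from 7.30 to 12.47. Bacterial *trp* control probe sets, for which the discs hold no transcript, averaged 3.63 to 3.72, and 6 of the mutant means were under 6. How low a transcript of so low a value really was cannot be told, since background differs between probe sets.

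**Figure D1:**
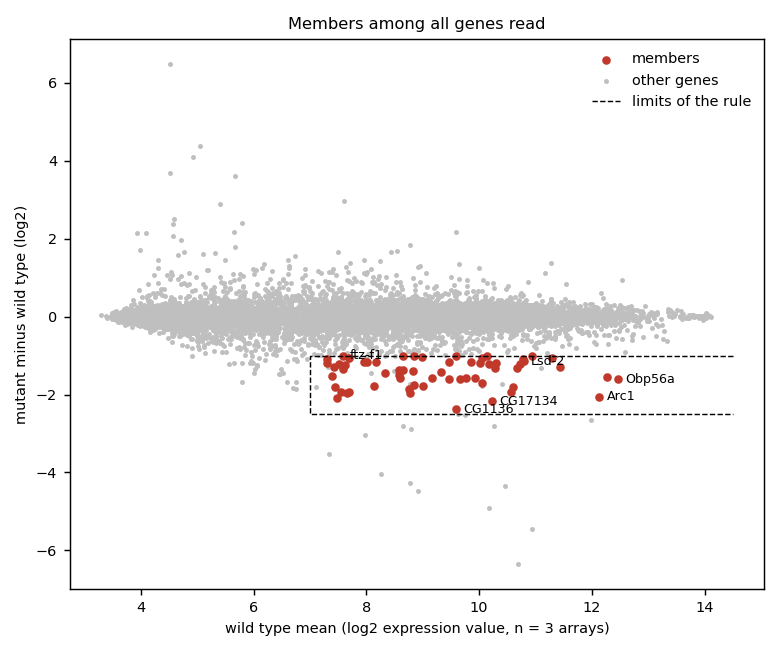
Difference between mutant and wild type (log2) against the wild type mean (log2 expression value, n = 3 arrays) for each gene read, with the 61 members in red and the limits of the rule as a dashed line. The members lie between 1.0 and 2.5 log2 units below 0 at wild type means of 7 or more, and other genes inside the dashed limits overlap between genotypes or are Cyp and Gst genes.

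Of the 61 genes, 34 also passed limma with Benjamini-Hochberg adjustment over 18769 probe sets at an adjusted p of 0.05, and 27 did not. Over all genes read, 0.96% were called lower and 0.968% higher by the same test. Since the rule used this contrast, the share among the members is a description of their spread and nothing more is read from it. Likewise 8.73% of all genes had 3 mutant values below 3 wild type values, and 0.534% met the limits with Cyp and Gst genes kept in. The number of called members was 20, 19 and 21 without mutant replicate 1, 2 and 3 and 21 without wild type replicate 2, and 13 members were called in all 6 fits with 1 array left out. These were *Arc1*, *wnd*, *Skp2*, *opm*, *Rab9*, *Lsd-2*, *hng3*, *CG1136*, *CG10927*, *CG3568*, *CG5167*, *CG6865* and *CG8607*. The other called members lost the call without at least 1 array. Members had been picked for genotypes that lie apart, which by itself helps a call to outlast the loss of an array. How many of all genes kept a call throughout is not given here, so no robustness is read from the 13.

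The distance between the genotypes varied more than the means show. The gap between the highest mutant and the lowest wild type value had a median of 0.76 log2 units. It reached at least 1 in 18 genes and at least 0.5 in 42, and it was under 0.25 in 10. The widest gap, 2.08, belonged to *CG1136*, and the narrowest, 0.01, to *Obp58c*. Averaged over the 61 genes, the arrays stood at 7.93, 7.69 and 7.73 in the mutant and at 9.33, 9.21 and 9.13 in wild type.

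**Figure D2:**
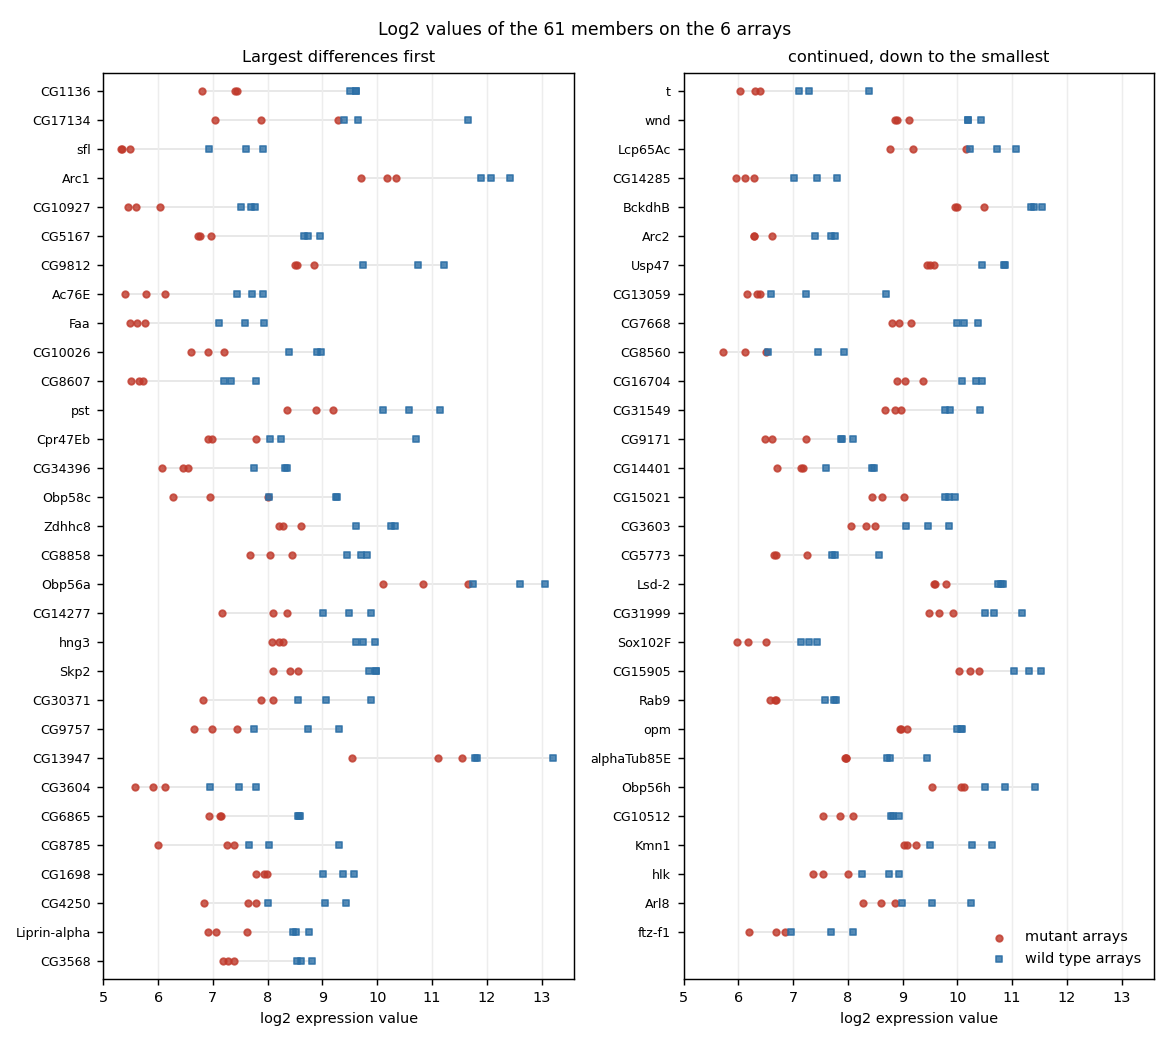
Log2 expression values of the 61 members on the 3 mutant arrays (red circles) and the 3 wild type arrays (blue squares), sorted by difference. The genotypes are well apart for genes such as *CG1136*, *sfl* and *Arc1* and nearly touch for *Obp58c*, *CG8560* and *Obp56a*.

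Among the members with a known role, 6 belong to signaling and the synapse, and their genotypes lay apart by at least 0.8 log2 units in each. *Arc1* and *Arc2* encode relatives of the capsid proteins of mobile elements, and *Arc1* is known in flies for carrying RNA between neurons and muscle. *Arc1* had log2 values of 10.34, 10.18 and 9.70 in mutant discs, against 12.42, 12.08 and 11.89 in wild type discs, a difference of -2.06 (standard error 0.20). *Arc2* had values of 6.61, 6.28 and 6.28 in mutant discs, against 7.76, 7.69 and 7.41 in wild type discs, a difference of -1.23 (standard error 0.13). Both genes were therefore lower on every mutant array than on any wild type array, and replicate 1 was the highest array of each genotype for both.

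*Ac76E*, an adenylyl cyclase that makes cyclic AMP, had values of 5.78, 5.39 and 6.12 in mutant discs, against 7.43, 7.72 and 7.92 in wild type discs (difference -1.93, standard error 0.21). For *wnd*, the kinase that starts a JNK cascade in injured or growing axons, the values were 8.89, 8.86 and 9.12 in mutant discs, against 10.19, 10.44 and 10.19 in wild type discs. The *wnd* arrays differed little within a genotype, with an SD of 0.14 in each, and the difference was -1.32 (standard error 0.11). *Liprin-alpha*, a presynaptic scaffold that photoreceptor axons need to reach their targets, had values of 6.91, 7.63 and 7.06 in mutant discs, against 8.51, 8.75 and 8.47 in wild type discs (difference -1.38, standard error 0.19). Mutant replicate 2 stood nearest to wild type for *Liprin-alpha*, and still 0.84 below it.

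*Zdhhc8*, an enzyme that attaches palmitate to proteins, had values of 8.21, 8.28 and 8.60 in mutant discs, against 9.61, 10.25 and 10.32 in wild type discs (difference -1.70, standard error 0.21). All 6 genes of this group were among the 34 that passed limma, and their differences ran from -2.06 to -1.23 with a median of -1.54. *Arc1* and *wnd* were called whichever array was left out.

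The 3 members of the ubiquitin system were also set well apart. *Skp2*, the substrate-binding subunit of an SCF ubiquitin ligase, had values of 8.10, 8.56 and 8.40 in mutant discs, against 9.85, 9.97 and 9.98 in wild type discs (difference -1.58, standard error 0.12). *Usp47*, a deubiquitinating enzyme known in flies to keep the MAP kinase of the EGFR pathway stable, had values of 9.45, 9.50 and 9.58 in mutant discs, against 10.45, 10.85 and 10.88 in wild type discs (difference -1.22, standard error 0.13). *CG8858*, which resembles the proteasome adaptor Ecm29, had values of 8.45, 8.04 and 7.67 in mutant discs, against 9.82, 9.71 and 9.45 in wild type discs (difference -1.61, standard error 0.20). The gap between genotypes was at least 0.87 in each of the 3, all of which passed limma. None of the 14 measured genes of a list of the EGFR pathway and its targets was called lower, with a median difference of 0.23 over the list, and *Cbl*, which ubiquitinates the receptor, was the 1 called higher (10.61 ± 0.09 in mutant and 8.77 ± 0.11 in wild type discs, SD, n = 3 each).

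Membrane traffic was represented by 3 genes with differences close to the lower limit. For *opm*, a p24 family protein of transport between the endoplasmic reticulum and the Golgi, the values were 9.08, 8.95 and 8.98 in mutant discs, against 10.07, 10 and 10.09 in wild type discs. *Rab9*, a small GTPase of late endosomes, had values of 6.67, 6.58 and 6.68 in mutant discs, against 7.74, 7.78 and 7.58 in wild type discs. These genes differed by -1.05 (standard error 0.07) and -1.06 (standard error 0.08), and their arrays hardly varied within a genotype. *Arl8*, a small GTPase that links lysosomes to motor proteins, differed by -1.0 (standard error 0.32), with values of 8.61, 8.87 and 8.28 in mutant discs, against 10.25, 9.53 and 8.99 in wild type discs. Here wild type replicate 3 lay only 0.12 above mutant replicate 2, and *Arl8* did not pass limma.

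The 2 members that act on glycans included *sfl*, which encodes the enzyme that removes acetyl groups from heparan sulfate and sulfates it, a step that Wingless, Hedgehog and FGF signals depend on. For *sfl* the values were 5.32, 5.48 and 5.34 in mutant discs, against 7.92, 7.60 and 6.92 in wild type discs (difference -2.10, standard error 0.24). The mutant arrays agreed closely at a low level, and the wild type arrays spread over 1 log2 unit. *CG9171*, annotated as a glycosyltransferase, differed by -1.18 (standard error 0.20) and did not pass limma.

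Metabolism and transport formed the largest group with a known role, 10 genes with a median difference of -1.38. Its 2 largest differences were those of *CG5167* and *Faa*, enzyme genes of amino acid breakdown or related to such genes. *CG5167*, a relative of saccharopine dehydrogenases, had values of 6.96, 6.76 and 6.73 in mutant discs, against 8.73, 8.95 and 8.66 in wild type discs (difference -1.96, standard error 0.10). *Faa*, fumarylacetoacetase, which ends the breakdown of tyrosine, had values of 5.76, 5.49 and 5.61 in mutant discs, against 7.93, 7.59 and 7.11 in wild type discs (difference -1.92, standard error 0.20). *BckdhB*, a subunit of the branched-chain ketoacid dehydrogenase, had values of 10.48, 10 and 9.95 in mutant discs, against 11.41, 11.54 and 11.35 in wild type discs (difference -1.29, standard error 0.15). For all 3 enzymes the genotypes were separated by at least 0.87, more than the range of mutant arrays.

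The gene *t* (*tan*) encodes the hydrolase that frees dopamine and, in photoreceptors, histamine from their beta-alanine conjugates. Its values were 6.30, 6.03 and 6.40 in mutant discs, against 8.38, 7.10 and 7.29 in wild type discs (difference -1.35, standard error 0.33). Wild type replicate 1 alone stood above 8 for *t*, and the difference did not pass limma.

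*Lsd-2* encodes a perilipin, a coat protein of lipid droplets that protects stored fat. It had values of 9.58, 9.60 and 9.80 in mutant discs, against 10.80, 10.84 and 10.75 in wild type discs, with a difference of -1.14 (standard error 0.08), and both genotypes were tight. *CG10026*, which carries a CRAL-TRIO lipid-binding domain, had values of 7.20, 6.90 and 6.60 in mutant discs, against 8.90, 8.39 and 8.98 in wild type discs (difference -1.86, standard error 0.21). *Lsd-2* was 1 of 2 genes called lower in a list of 25 measured genes of fatty acid and lipid metabolism, the other being the acyl-CoA oxidase *Acox57D-p* (6.72 ± 0.09 in mutant and 7.66 ± 0.13 in wild type discs, SD, n = 3 each). No gene of that list was called higher, and its median difference was -0.04.

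The remaining members of this group were 2 transporter genes and 2 short-chain dehydrogenases. *CG1698*, an amino acid transporter, differed by -1.42 (standard error 0.15), with SDs of 0.10 in mutant and 0.28 in wild type discs. *CG8785*, of another amino acid transporter family, had values of 7.26, 7.38 and 5.99 in mutant discs, against 8.02, 7.65 and 9.31 in wild type discs. Replicate 3 was thus the lowest mutant and the highest wild type array for *CG8785*, and its difference of -1.45 (standard error 0.53) was -0.96 without wild type replicate 3. The dehydrogenases *CG31549* and *CG3603* differed by -1.18 and -1.16. In a list of 67 measured membrane transporters, which held neither of the 2 transporter members, *Zip102B* was called lower and *ppk28* higher, and the median difference was -0.01.

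Secreted proteases and their inhibitors gave 6 members, whose arrays ranged from very tight to very variable. *CG17134*, a pepsin-like aspartic protease, had values of 9.28, 7.03 and 7.87 in mutant discs, against 9.64, 11.66 and 9.39 in wild type discs (difference -2.17, standard error 0.77). *CG30371*, a serine protease, had values of 8.09, 6.82 and 7.88 in mutant discs, against 8.56, 9.89 and 9.07 in wild type discs (difference -1.58, standard error 0.44). In both genes replicate 2 was the lowest mutant array and the highest wild type array, and the genotypes came within 0.11 and 0.47 of each other. *CG6865*, a serine protease too, had values of 6.92, 7.13 and 7.15 in mutant discs, against 8.57, 8.59 and 8.56 in wild type discs (difference -1.51, standard error 0.08). Its wild type SD of 0.02 was the smallest among the members.

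*CG16704* and *CG3604* encode small proteins with a Kunitz domain, the fold of many serine protease inhibitors. *CG3604* had values of 5.90, 6.13 and 5.57 in mutant discs, against 7.78, 7.47 and 6.95 in wild type discs (difference -1.53, standard error 0.24). *CG16704* had values of 9.37, 8.89 and 9.05 in mutant discs, against 10.46, 10.35 and 10.08 in wild type discs (difference -1.19, standard error 0.15). The metallocarboxypeptidase *CG8560* differed by -1.20 (standard error 0.37), with 0.05 between its genotypes. In a list of 63 measured serine proteases and serpins, which held none of these members, 1 gene was called lower, the serpin *Spn42Dd* (6.65 ± 0.13 in mutant and 7.47 ± 0.24 in wild type discs, SD, n = 3 each), and none was called higher.

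None of the 5 odorant-binding and cuticle proteins passed limma, although their median difference, -1.60, was larger than that of the 61 genes. Odorant-binding proteins are small secreted carriers of hydrophobic molecules, made in chemosensory organs and in other tissues. *Obp58c* had values of 8.01, 6.27 and 6.95 in mutant discs, against 9.27, 8.02 and 9.24 in wild type discs (difference -1.77, standard error 0.52). *Obp56a* had values of 11.66, 10.84 and 10.11 in mutant discs, against 13.07, 12.60 and 11.74 in wild type discs (difference -1.60, standard error 0.47). *Obp56h* had values of 10.07, 9.53 and 10.12 in mutant discs, against 11.42, 10.87 and 10.50 in wild type discs (difference -1.02, standard error 0.26). Each of the 3 varied by more than 0.5 log2 units among the arrays of a genotype, and *Obp58c* and *Obp56a* separated the genotypes by 0.08 or less.

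Across the odorant-binding family, looked at after these members were seen, 34 of 47 measured genes had a difference below 0 and 12 above it, with a median of -0.10. Of the family, 8 genes were lower by at least 1, none was called lower by limma and 1, *Obp83g*, was called higher (9.82 ± 0.07 in mutant and 8.83 ± 0.29 in wild type discs, SD, n = 3 each). *Obp47a* and *Obp58d* met the other limits but overlapped between genotypes. *Obp47a* had values of 7.86, 6.36 and 7.08 in mutant discs, against 8.98, 7.61 and 8.88 in wild type discs, and *Obp58d* had 6.82, 6.13 and 6.27 in mutant discs, against 8.15, 6.79 and 7.95 in wild type discs. In *Obp58c*, *Obp47a* and *Obp58d* alike, replicate 2 was the lowest array of both genotypes and replicate 1 the highest. A wider list of 236 measured genes joined the Or, Gr and Ir chemosensory receptor families, the odorant-binding genes and the Osi genes. In it, *Ir76a* and *Gr61a* were called lower, *Obp83g* and *Osi24* higher, and the median difference was -0.03.

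The cuticle proteins *Cpr47Eb* and *Lcp65Ac* are structural proteins of the larval or pupal exoskeleton. *Cpr47Eb* had values of 6.99, 7.78 and 6.90 in mutant discs, against 10.70, 8.05 and 8.25 in wild type discs. Wild type replicate 1 stood more than 2 log2 units above the other wild type arrays, and the wild type SD of 1.48 was the largest among the members. The difference was -1.78 (standard error 0.71) with all arrays and -0.93 without wild type replicate 1. *Lcp65Ac* had values of 10.15, 8.78 and 9.19 in mutant discs, against 11.07, 10.73 and 10.24 in wild type discs (difference -1.31, standard error 0.38), with 0.09 between the genotypes. Of 103 measured cuticle protein genes, none was called lower and 1, *Cpr65Av*, was called higher, and the median difference was -0.01.

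The nuclear members were 4 genes of unlike function. For *hng3*, whose product carries a MADF domain, the values were 8.28, 8.07 and 8.21 in mutant discs, against 9.96, 9.61 and 9.74 in wild type discs (difference -1.58, standard error 0.11). *Sox102F*, a SoxD transcription factor, had values of 5.98, 6.51 and 6.17 in mutant discs, against 7.15, 7.30 and 7.44 in wild type discs (difference -1.08, standard error 0.15). *Kmn1*, a kinetochore subunit, had values of 9.09, 9.03 and 9.24 in mutant discs, against 9.51, 10.27 and 10.63 in wild type discs (difference -1.02, standard error 0.27). The first of these kept the genotypes 1.33 apart, and for *Kmn1* wild type replicate 1 came within 0.27 of the mutant. No gene was called in either direction in a list of 15 measured cell cycle and E2F target genes, whose median difference was 0.10.

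The nuclear receptor gene *ftz-f1* acts after the ecdysone pulses that time molting and metamorphosis, and in flies it is activated by *Hr3* and repressed by *Blimp-1*. Its values were 6.86, 6.20 and 6.68 in mutant discs, against 7.69, 8.09 and 6.97 in wild type discs, a difference of -1.0 (standard error 0.31), which limma did not call. Wild type replicate 3 lay 0.11 above mutant replicate 1. In an ecdysone response list of 16 measured genes, *ftz-f1* had the lowest difference, none was called lower and 3 were called higher, with a median of 0.37. The list mean was 9.87 to 10.12 on mutant and 9.23 to 9.96 on wild type arrays, so the genotypes overlapped. Its highest wild type mean was on replicate 3, where *ftz-f1* was the lowest in wild type. *Blimp-1* averaged 10.22 ± 0.15 in mutant and 8.55 ± 0.47 in wild type discs (SD, n = 3 each), *Eip93F* 5.63 ± 0.23 in mutant and 4.55 ± 0.27 in wild type discs, and *MsrA* 9.48 ± 0.11 in mutant and 8.60 ± 0.05 in wild type discs. The adjusted p from limma was 0.0221 for *Blimp-1*, 0.0382 for *Eip93F* and 0.00381 for *MsrA*. *Hr3* itself averaged 8.63 ± 0.39 in mutant and 7.42 ± 0.76 in wild type discs, with an adjusted p of 0.277 from limma. The part of these genes in the values of *ftz-f1* was not tested.

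Of the other named genes, *pst* (*pastrel*) is known for alleles that set resistance to viruses in flies. The *pst* values were 9.19, 8.88 and 8.36 in mutant discs, against 11.14, 10.58 and 10.11 in wild type discs (difference -1.80, standard error 0.31), which left 0.92 between the genotypes. The alpha-tubulin isotype *alphaTub85E* had values of 7.95, 7.96 and 7.96 in mutant discs, against 8.72, 8.78 and 9.45 in wild type discs (difference -1.03, standard error 0.19). The mutant arrays of *alphaTub85E* agreed within 0.01, and wild type replicate 3 stood above the other 2. For *hlk*, with no role given here, the difference was -1.01 (standard error 0.22). None of these 3 passed limma.

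The remaining 19 members are known only by CG numbers with no role given here, and they include the gene with the largest difference of all. *CG1136* had values of 7.41, 6.80 and 7.43 in mutant discs, against 9.51, 9.62 and 9.62 in wild type discs (difference -2.37, standard error 0.17). *CG10927* had values of 6.03, 5.44 and 5.59 in mutant discs, against 7.77, 7.69 and 7.51 in wild type discs (difference -1.97, standard error 0.16). *CG8607* had values of 5.73, 5.65 and 5.50 in mutant discs, against 7.79, 7.20 and 7.33 in wild type discs (difference -1.81, standard error 0.16). In all 3 genes the distance between the genotypes, at least 1.47, was larger than the range of arrays within either genotype.

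*CG9812* had values of 8.84, 8.53 and 8.49 in mutant discs, against 11.22, 9.74 and 10.74 in wild type discs (difference -1.95, standard error 0.36), with wild type replicate 2 well under the other wild type arrays. *CG34396* had values of 6.07, 6.46 and 6.55 in mutant discs, against 7.74, 8.35 and 8.31 in wild type discs (difference -1.77, standard error 0.20). *CG14277* and *CG9757* differed by -1.59 (standard error 0.35) and -1.57 (standard error 0.40), and wild type replicate 3 of *CG9757* came within 0.31 of mutant replicate 1. The other 12 CG-numbered genes with no role ran from -1.54 for *CG13947* to -1.02 for *CG10512*. Among these, 1 array decided much of the value in *CG13059*, whose difference of -1.21 was -0.62 without wild type replicate 2. Of the 19 genes, 10 passed limma.

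A second probe set, which the rule did not use, was read for 5 members. It lay lower in the mutant for *Arc1*, with 6.18, 7.69 and 6.76 in mutant discs, against 10.75, 9.72 and 9.48 in wild type discs, a difference of -3.11 (standard error 0.46). For *Zdhhc8* it had 7.45, 7.47 and 7.78 in mutant discs, against 9.09, 9.25 and 9.35 in wild type discs, a difference of -1.66 (standard error 0.12). Both genes were thus separated on both of their probe sets, by at least 1.31 on these second ones. For *hlk* the second probe set differed by -0.87 (standard error 0.23) with 0.16 between the genotypes. For *CG34396* it differed by -0.49 (standard error 0.10) and averaged 4.35 in mutant and 4.84 in wild type discs, below the median of all values. For *ftz-f1* it had 5.67, 5.31 and 5.77 in mutant discs, against 6.34, 6.56 and 5.42 in wild type discs, so that the genotypes overlapped (difference -0.52, standard error 0.30). A second probe set reads the same RNA and is no replicate.

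The arrays of 1 genotype differed more in the members than in most genes of comparable signal. Genes whose arrays vary reach a difference of 1.0 more readily, so the rule itself favours them, and nothing more is read from this. The SD among mutant arrays had a median of 0.27 and was over 0.5 in 9 members (14.8%), against 1.33% of the 6179 genes with a wild type mean of 7 or more. Among wild type arrays the median SD was 0.35, and it was over 0.5 in 18 members (29.5%), against 6.04% of those genes. Wild type arrays varied more than mutant arrays in 38 members (62.3%) and in 76.8% of those genes. At the other end, the mutant SD was under 0.2 in 23 members (37.7%), against 84.0% of those genes, and the wild type SD in 21 members (34.4%), against 57.9%. Among these tight members were *opm*, *Rab9* and *wnd* in both genotypes.

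The variable members did not all vary in the same way. Replicate 1 was the highest array of both genotypes in 20 members (32.8%), against 25.3% of genes with a wild type mean of 7 or more. In 7 of these, *Arc1*, *CG31549*, *CG3603*, *CG8560*, *CG8858*, *Obp56a* and *pst*, replicate 3 was also the lowest array of both genotypes. This order was found in 11.5% of the members, against 13.8% of those genes, and so was not more frequent among the members. A fat body list of 9 measured markers, with 6 above the median of all values, had the same order, with list means of 7.41, 6.30 and 5.95 on mutant arrays, against 7.60, 6.60 and 6.13 on wild type arrays. Their part in the values of these 7 members was not tested.

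In 8 members (13.1%, against 9.74% of genes with a wild type mean of 7 or more) wild type replicate 2 was the highest wild type array and mutant replicate 2 the lowest mutant array. These were *CG13947*, *CG15021*, *CG17134*, *CG30371*, *CG9757*, *Rab9*, *ftz-f1* and *wnd*, and in 5 of them, *CG13947*, *CG17134*, *CG30371*, *CG9757* and *ftz-f1*, mutant replicate 1 was the highest mutant array. *CG13947* had values of 11.54, 9.54 and 11.11 in mutant discs, against 11.78, 13.21 and 11.83 in wild type discs, and its difference was -0.95 without mutant replicate 2. Salivary gland markers were 13 measured genes, 12 of them above the median of all values. Their list means were 10.79, 8.44 and 8.73 on mutant arrays, against 8.69, 10.43 and 10.37 on wild type arrays. The highest list means fell on the same arrays as in the 5 members. These members were picked by those arrays, so nothing is read from this match. In wild type the list stood nearly as high on the last replicate (10.37) as on replicate 2. That last replicate was the lowest wild type array for *CG17134* (9.39), *CG9757* (7.74) and *ftz-f1* (6.97). *CG13947* (11.78) and *CG30371* (8.56) were lowest on wild type replicate 1, as the list was. The ranges of the list means overlapped between genotypes, and the part of these markers in the 5 members was not tested.

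**Figure D3:**
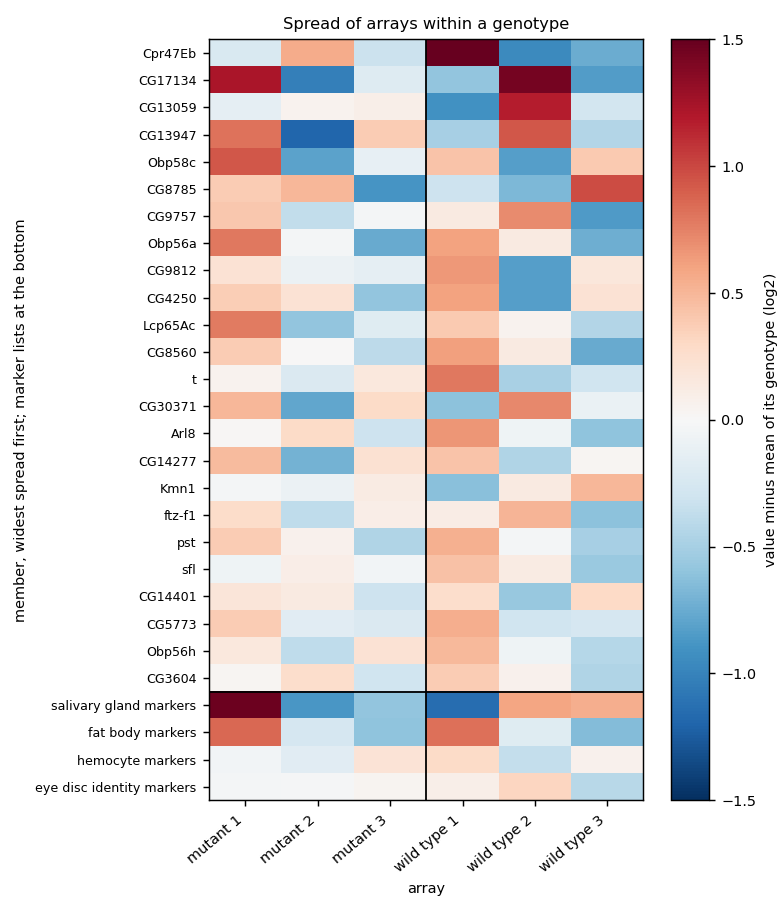
Deviation of each array from the mean of its genotype (log2; colors end at 1.5 on either side of 0) for the 24 members with the widest spread and, at the bottom, for the mean of 4 marker lists. *CG17134*, *CG13947* and *CG30371* are low on mutant replicate 2 and high on wild type replicate 2, and *Obp56a*, *CG8560* and *pst* are high on replicate 1 and low on replicate 3 of both genotypes.

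Marker lists of some other cell types were shifted between the genotypes as well. Of 13 measured muscle markers, 12 had a difference below 0, with a median of -0.25, and the list mean was 9.48 to 9.81 on mutant arrays and 9.79 to 10.09 on wild type arrays. All 13 measured hemocyte markers were above 0, with a median of 0.58 and list means of 8.33 to 8.70 on mutant and 7.53 to 8.17 on wild type arrays, and 1, *NimC1*, was called higher. The gene *lz* is in both the hemocyte list and the eye disc identity list. Of 7 measured oenocyte markers, *Cyp4g1* was called lower, and the list means were 6.84 to 6.93 on mutant and 7.12 to 7.75 on wild type arrays. The median difference of these 7 was only -0.02 and the lowest -3.03, so their list means do not stand for the whole list. Of the 13 salivary gland markers, 10 were below 0, with a median of -0.30. The list means of hemocyte and oenocyte markers did not overlap between the genotypes, and those of muscle and salivary gland markers did. Those of 7 measured glia markers came close but did not overlap either, at 8.71 to 8.86 on mutant and 8.56 to 8.70 on wild type arrays. Of these glia markers, 5 were above 0 and 2 below, with a median of 0.21. No member is in any of these marker lists, and their part in the members' differences was not tested.

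The members lie on all large chromosome arms and on chromosome 4. Chromosome arm 2R held 18 of them (29.5%, against 20.4% of genes read) and 3L held 17 (27.9%, against 19.7%). There were 10 on 2L (16.4%, against 18.5%), 7 on X (11.5%, against 15.7%) and 7 on 3R (11.5%, against 25.0%), the arm that carries *dE2f1* and *mir-998*. The remaining 2 members were on chromosome 4, which holds 0.547% of the genes read. The member of 3R nearest to *dE2f1* was *CG14285*, with a distance of 246 measured genes.

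In 4 places members lay within a few genes of each other, by the gene order of the RefSeq table. *Arc1* and *Arc2* are adjacent, and the measured genes on either side, *CG8617* and *Tfb1*, differed by 0.09 and -0.13. Between *opm* and *Lsd-2* lies *dob*, a lipase gene related to *brummer*, which differed by -0.23, and the flanking *ND-B18* and *CG33177* differed by -0.09 and -0.02. Between *Rab9* and *CG10026* lie *CG10237*, *RanGAP* and *Hs2st*, which differed by -0.08, 0.05 and 0.15, and the flanking *RtcB* and *tj* differed by 0.33 and -0.12. In these 3 places the lower genes were thus next to genes that differed by 0.33 or less in either direction.

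The fourth place differed in this respect. *CG16704* and *CG3604* stand in a group of Kunitz-domain genes on 2L, and of the 3 measured genes between them, *CG16713* and *IM33* were lower in the mutant on all arrays too. *CG16713* had values of 5.46, 4.89 and 5.07 in mutant discs, against 6.81, 6.99 and 5.67 in wild type discs (difference -1.35, standard error 0.35), and missed the rule on its wild type mean. *IM33* had values of 4.51, 4.46 and 4.65 in mutant discs, against 5.03, 6.48 and 4.81 in wild type discs (difference -0.90, standard error 0.42). Neither passed limma, with adjusted p of 0.181 and 0.49, and the third gene, *CG3513*, differed by -0.02.

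**Figure D4:**
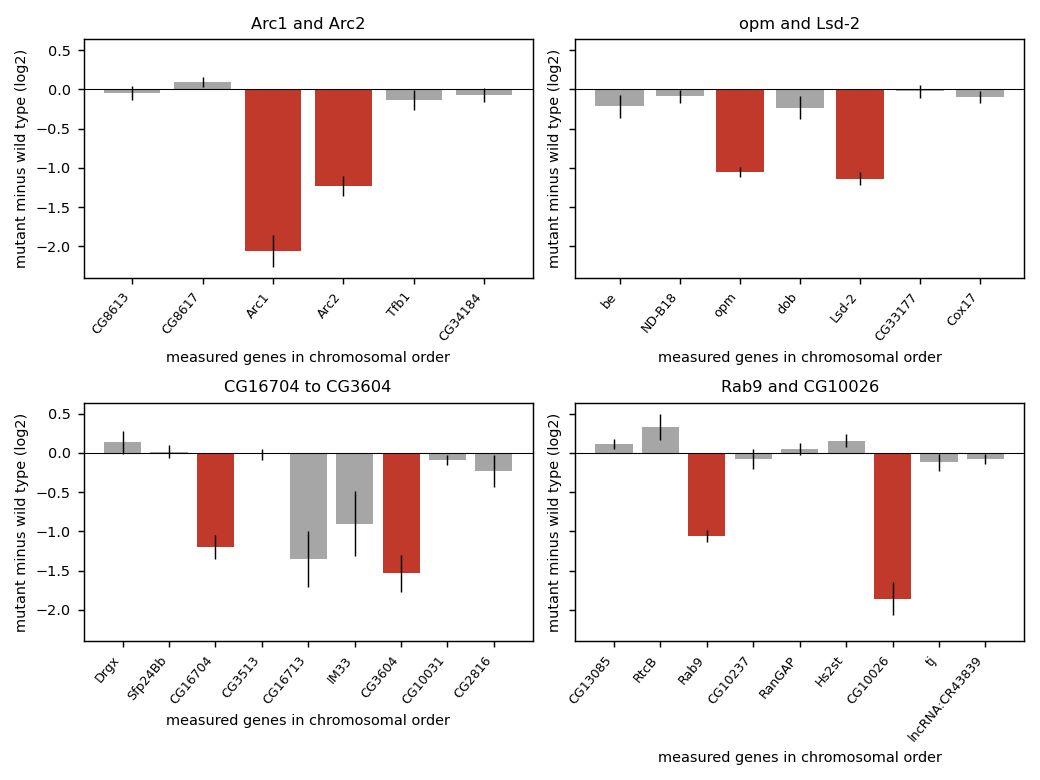
Difference between mutant and wild type (log2, bars; error bars are standard errors from limma) for measured genes in chromosomal order around the 4 places where members lie close together, with members in red and other genes in grey. *Arc1* and *Arc2*, *opm* and *Lsd-2*, and *Rab9* and *CG10026* stand among genes near 0, whereas *CG16713* and *IM33* between *CG16704* and *CG3604* are also below 0.

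The limits of the rule cut through continuous values. Just inside a difference of 1.0 were *hlk* (-1.01), *Arl8* (-1.0) and *ftz-f1* (-1.0), and just outside were *CG7768*, *Adi1* and *SPR*, at -0.997, -0.983 and -0.983. At the other end *CG1136* (-2.37), *CG17134* (-2.17) and *sfl* (-2.10) were inside, and *ng1* (-2.52), *CG13461* (-2.65) and *CG14191* (-2.80) outside. On the wild type mean, *Sox102F* (7.30), *CG8560* (7.31) and *CG3604* (7.40) were the closest inside, and *CG2841*, *CG31809* and *Ect3*, at 6.77, 6.76 and 6.76, the closest outside. In all, 11 genes met the other limits and overlapped between genotypes, with *Obp58d*, *CG13403* and *Obp47a* the closest to separation.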

How the data were processed

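The table the authors deposited gives log2 expression for 18952 probe sets on 6 Affymetrix arrays, computed with affy by rma, that is by background correction, normalization to a common distribution and summary of each probe set. The values have 2 decimals, and arrays give no read depth, so their number limits the precision (3 against 3 arrays cannot give an exact permutation p below 0.1). Without the 183 control probe sets, 18769 entered limma (version 3.58.1, R 4.3.3; lmFit, then eBayes; mutant against wild type, no covariate), with Benjamini-Hochberg adjustment over all of them. The fit was tested on simulated data with independent normal noise and the same spread in both genotypes. The real arrays differed in spread between genotypes, and the simulation does not cover this. A platform annotation, with symbols brought up to date from RefSeq (Release 6), gave 1 gene for 13647 probe sets and several for 402, and 4720 are unnamed here. Standard errors are those of limma. The p-values measure only how these samples spread, part of which may be technical.

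The members and the gene and marker lists were chosen with earlier results of these data known. Members with a symbol and the 12 CG-numbered members with the largest difference are named by rule. Other CG-numbered members and non-members outside the lists and limits were named after their values were seen. Alternatives were other normalizations, variance models, array weights, filters, probe set choices, limits and thresholds, the replicate number as a block, and each array left out. Promoter sequences were not analysed here.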

Additional observations from a re-analysis of the deposited data

How the results depend on the processing

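The rule asks for genotypes that do not overlap, so leaving out an array or adding the block cannot turn the sign of a member, and no stability is read from those signs. Of 671 values of a member's difference under the alternatives, 3 moved by more than the spread between replicates, all through the choice of probe set: *Arc1* to -3.11 with the probe set of largest difference and to -2.58 with both probe sets averaged, and *CG34396* to -1.13 likewise. The 671 values lay between -3.11 and -0.62. Many of them could hardly move, so no stability is read from the count of 3. The block leaves a difference unchanged, and 56 members have 1 probe set. A fit with 1 array left out is judged against the spread of those same arrays. Thus -0.62 for *CG13059* without wild type replicate 2, against -1.21 with all arrays, was not counted as moved. Limits changed the number of members most, to 99 with differences from 0.8 and to 40 with differences from 1.2. With array medians subtracted 53 genes met the limits, 52 of them members. With 1 array left out 62 to 83 genes met them, and these held 51 to 59 of the 61 members.

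The number of members called by limma was 34 to 41 under other normalizations, variance models, array weights, filters and probe set choices, 19 at an adjusted p of 0.01 and 19 to 36 with 1 array left out. Over all genes, 115 were called lower and 116 higher; array weights raised these to 196 and 177, an adjusted p of 0.01 lowered them to 45 and 40, and leaving out 1 array gave 43 to 174 lower and 42 to 148 higher. Deviations of same-numbered arrays correlated at 0.19, -0.23 and 0.29, so the numbers were not taken as pairs; with the replicate number as a block 43 members, 128 lower and 96 higher genes were called. The planned count of motifs in promoters and its alternative window were not run, since no sequence was used here. Values near the bacterial controls cannot show how low a transcript is.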

Other observations

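The probe sets left out because no single gene names them were 4720 unnamed ones and 402 naming several genes. Among them, 15 met the same limits as the 61 genes, and 12 of these were called lower by limma. Over all genes read, 0.96% were called lower. The limits use the same contrast, so nothing is read from the count of 12. The differences of the 15 ran from -2.23 to -1.09. Of the 15, 10 are unnamed here and 5 name several genes. The probe set shared by *shn*, a transcription factor of Dpp signaling, and *Cyp6v1* had values of 9.42, 9.64 and 9.84 in mutant discs, against 11.37, 11.92 and 12.22 in wild type discs (difference -2.20, standard error 0.22). The probe set shared by *Edem1*, which helps to clear misfolded proteins from the endoplasmic reticulum, and *CG32801* had values of 7.57, 7.83 and 7.56 in mutant discs, against 8.86, 8.93 and 8.77 in wild type discs (difference -1.20, standard error 0.10). Which of the named genes a shared probe set reads cannot be told apart. The probe set shared by the salivary gland genes *ng1* and *ng2* had values of 9.92, 7.13 and 9.10 in mutant discs, against 10.37, 11.60 and 10.05 in wild type discs. As in *CG17134* and *CG13947*, replicate 2 was its lowest mutant and its highest wild type array.

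Among lists that hold no member, no gene was called in either direction for sugar metabolism (19 measured, median difference -0.04), immune effectors (28 measured, median -0.05) and detoxification genes other than Cyp and Gst (52 measured, median -0.04). In the Cyp and Gst list of 117 measured genes, left out of the 61 by rule, 6 were called lower and 6 higher, with a median of -0.06. In a list of mobile element and small RNA defence, 1 of 17 measured genes, *krimp*, was called lower, and in a heat shock and stress list 1 of 9, *Hsp26*, was called higher (12.66 ± 0.17 in mutant and 11.28 ± 0.41 in wild type discs, SD, n = 3 each, adjusted p = 0.0316 from limma).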
